A study of Mus musculus with 16 samples.

Results

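Skeletal muscle genes were followed in liver and colorectum of mice given the sialic acid Neu5Gc (N-glycolylneuraminic acid) in their drinking water. The set holds 43 of the 36118 genes in the deposited tables and covers the contractile proteins, the calcium handling and the energy supply of the muscle fibre. The genes were chosen by name from the high against low difference seen in these libraries. Their differences between high and low Neu5Gc are therefore described here and not tested, and counts of calls by the fit over all genes are given as description.

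All mice were 8-week-old males carrying the Min allele of Apc (APC Min/+), a strain that develops intestinal adenomas, kept on a 12-h light cycle with standard chow. The low group, labelled control, drank 0.0127 mg/ml Neu5Gc and the high group, labelled treatment, 0.2535 mg/ml, both for 14 days, so no group went without Neu5Gc. The labels give 3 low and 3 high liver libraries and 4 low and 6 high colorectum libraries. The design text of the series gives 6 control and 4 treated mice instead; groups follow the labels here, and exchanged colorectum group names would turn every colorectum direction. The labels do not say which libraries come from which mouse, so spreads and p-values refer to these libraries.

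In a skeletal muscle fibre, myosin heavy chains of the thick filament pull on actin of the thin filament when calcium released from the sarcoplasmic reticulum binds to troponin C. Fast and slow fibres build the same machinery from different genes, so that heavy chains, light chains, troponins and myosin-binding protein C come in fast and slow forms. Several slow forms are also the heart forms. Neither hepatocytes nor the mucosa and smooth muscle wall of the large bowel are built from these fibres, although smooth muscle uses some of the genes, such as Tpm2.

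Total estimated counts, in units of 1e6, ran from 47.5 to 55.9 in low and from 68.8 to 86.1 in high liver libraries, and these depths did not overlap. They ran from 48.3 to 73.9 in low and from 46.1 to 70.7 in high colorectum libraries. A level is given as counts per 1e6 estimated counts (CPM) unless TPM, which is scaled for gene length, is named. A count of 3 was worth 0.0348 to 0.0651 CPM, and values near or under this are few reads. The liver libraries carried hepatocyte transcripts throughout, with Alb, the serum albumin gene, at a mean of 61432 CPM in low and 65029 in high, and the colorectum libraries carried Epcam, an epithelial adhesion gene, at 1236 and 1436. Some libraries also carried transcripts of other organs. A list of 8 pancreatic acinar genes summed to 6848 CPM in low liver library 1 and 2932 in high liver library 1, against at most 10.4 in the other 4. The same list summed to 3222 in low colorectum library 3, and 8 kidney tubule genes summed to 9938 in low colorectum library 4. In bulk tissue, more cells of a type and more RNA per cell cannot be told apart.

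Skeletal muscle transcripts were scarce in low and plentiful in high liver libraries. The 43 genes summed to 71.9, 71.6 and 53.8 CPM in low libraries 1, 2 and 3 and to 386, 335 and 433 CPM in high libraries 1, 2 and 3. Neb alone gave 32.1 to 43.4 CPM of each low sum. All 43 genes passed the filter on low counts, and in 40 of them all 3 high libraries lay above all 3 low ones, a pattern that 8.61% of the 15522 liver genes tested showed. With edgeR's quasi-likelihood test, 36 of the 43 were called higher and 0 lower at an adjusted p under 0.05 (0 lower at an unadjusted p under 0.05 too, and 39 higher and 0 lower by the DESeq2 Wald test), against 3.15% of all tested genes called higher and 3.32% called lower. The median log2 difference was 4.10 over the 43 genes and 0.00 over all tested genes. Since the genes were listed for this contrast, nothing further is read from these counts. The filter asked for reads in as many libraries as a group holds, so a gene could pass on its high libraries alone. Myl2, Tnni1, Sln and Myot did so most plainly, each with at most 3.95 estimated counts in the 3 low libraries together. Others did too, among them Myl3, Myoz1, Smpx and Cmya5, at no more than 0.144 CPM in any low library. The separation of such genes followed from the filter, and they are among the 40 and the 36. How many of the 40 and the 36 this covers was not counted. On TPM, 24 of the 43 were called higher. Among all genes tested 165 were called higher and 1610 lower, with a median of -0.17. That fit kept only the 11588 genes at 1 TPM or more in at least 3 libraries. Some of the 43, such as Ttn and Myh7, were thus not tested, and with no TPM filter 33 were called higher. With the replicate number as a block, 306 genes in all were called higher and 324 lower, in place of 489 and 515, and 25 of the 43 were called higher. Without low library 1 and high library 1, the libraries with acinar transcripts, 28 were called higher. After thinning every liver library to the depth of the shallowest, 36 were.

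**Figure D1:**
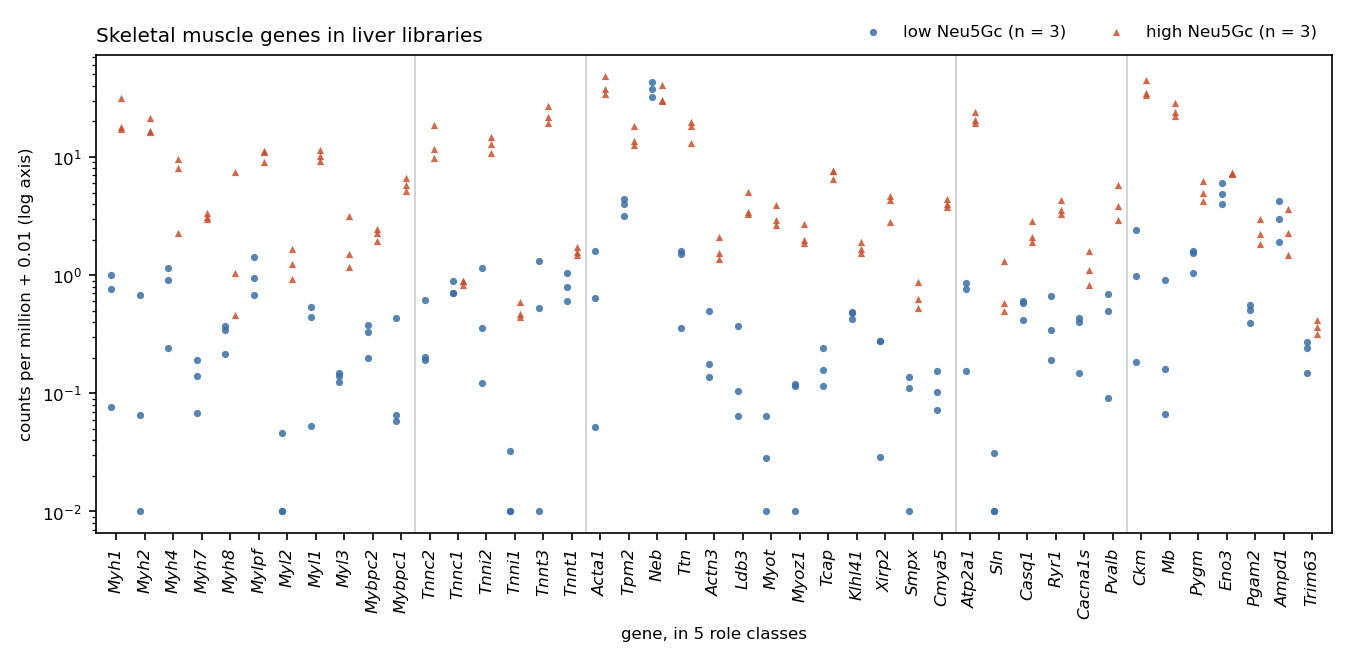
Level of each of the 43 skeletal muscle genes in each liver library, as CPM + 0.01 on a log axis. Circles are the 3 low and triangles the 3 high Neu5Gc libraries, and grey lines separate thick filament, troponins, thin filament with Z disc and scaffold, calcium handling, and energy with Trim63. The triangles lie above the circles for 40 genes, and the groups overlap for Neb, Tnnc1 and Ampd1.

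Acta1 (ENSMUSG00000031972), the skeletal muscle actin of the thin filament, was at 1.61, 0.625 and 0.0419 CPM in low liver libraries 1, 2 and 3 and at 37.8, 34.3 and 48.1 CPM in high libraries 1, 2 and 3. Ckm (ENSMUSG00000030399), the muscle creatine kinase that recycles ATP, was at 2.42, 0.972 and 0.174 CPM in low and at 34.6, 33.7 and 44.7 in high. Mb, the oxygen-storing myoglobin, was at 0.892, 0.152 and 0.0565 in low and at 24.0, 22.2 and 28.9 in high. All 3 genes ran in the same order within a group: low library 1 was the highest of the low libraries, high library 3 the highest of the high ones, and the groups did not overlap. The ratios of the mean levels, high over low, were 52.9 for Acta1, 31.7 for Ckm and 68.3 for Mb. The low means have SDs as large as themselves, at 0.758 ± 0.790 CPM for Acta1 (SD, n = 3), so the ratios are loose while the high means are tight, at 40.1 ± 7.16.

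The promoter regions of Acta1 and Ckm are shown because these 2 genes moved in opposite directions in liver and colorectum, as described further on. They are RefSeq sequences of build GRCm38.p6, from 250 bases before to 50 after the start of the gene, read on the gene's strand. Acta1 lies at chr8:123894726-123895025 on the minus strand and Ckm at chr7:19410844-19411143 on the plus strand. Capitals mark E-boxes (CANNTG, the motif bound by myogenic factors such as MyoD) and the CArG box bound by serum response factor.
Acta1: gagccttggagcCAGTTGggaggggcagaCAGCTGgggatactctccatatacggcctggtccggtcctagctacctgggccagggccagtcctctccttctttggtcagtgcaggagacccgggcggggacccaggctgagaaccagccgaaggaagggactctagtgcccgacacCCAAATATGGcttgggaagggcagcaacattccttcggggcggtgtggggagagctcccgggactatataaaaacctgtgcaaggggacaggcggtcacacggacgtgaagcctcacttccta
Ckm: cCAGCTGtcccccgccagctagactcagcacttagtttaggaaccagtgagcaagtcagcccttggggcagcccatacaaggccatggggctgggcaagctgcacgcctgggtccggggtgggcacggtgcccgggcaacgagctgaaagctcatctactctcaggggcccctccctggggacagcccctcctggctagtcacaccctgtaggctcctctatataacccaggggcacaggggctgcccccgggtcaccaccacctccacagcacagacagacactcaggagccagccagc
The Acta1 window holds 2 E-boxes, 1 of them with the sequence CAGCTG, and 1 CArG box. The Ckm window holds 1 E-box, again CAGCTG. Of the 43 genes, 34 have a promoter in the RefSeq table. CANNTG, which reads as an E-box on both strands, occurred in 28 of the 34 (82.35%) and in 72.15% of all 27025 promoters of the same length. CAGCTG, a subset of CANNTG, occurred in 17 of the 34 and in 16.11% of all promoters. CATTCC on either strand, the MCAT motif of TEAD factors, occurred in 13 of the 34 and in 14.63% of all. The MEF2 motif occurred in 8 of the 34 and in 3.264% of all, and the CArG box in 4 and 1.573%. These are matches of letters and not measured binding.

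The fast myosin heavy chains made up most of the heavy-chain transcripts in high liver libraries. Myh1, the heavy chain of type IIx fibres, was at 0.986, 0.0665 and 0.751 CPM in low and at 18.1, 17.2 and 31.4 in high. Myh2, that of type IIa fibres, was at 0.666, 0.0556 and 0 in low and at 21.4, 16.3 and 16.5 in high. The high libraries lay far above the low ones for both, with mean levels 36.9 and 75.1 times as high. Myh4, that of the fastest IIb fibres, was at 0.896, 1.14 and 0.230 in low and at 9.64, 8.04 and 2.25 in high. Myh7, the slow and cardiac heavy chain, was at 0.130, 0.181 and 0.0587 in low and at 3.11, 3.01 and 3.36 in high. Myh8, the perinatal heavy chain, was at 0.335, 0.360 and 0.204 in low and at 0.453, 1.03 and 7.45 in high. High library 3 stood apart within its group, lowest for Myh4 and highest for Myh8, and neither gene was called although their groups did not overlap. On TPM, Myh1 gave 41.3, 44.6 and 57.7% of the 5 heavy chains in high libraries 1, 2 and 3, Myh2 34.6, 30.0 and 21.4%, and Myh4 15.7, 14.9 and 2.94%. Myh7 gave 6.53 to 8.26% and Myh8 0.863, 2.24 and 11.4%. In low libraries the make-up scattered, with Myh1 at 39.3, 4.72 and 65.5%, on totals of few reads. The heavy-chain genes are near-identical in parts and the counting step is not given in the sources used here, so reads may be split among them and the shares are uncertain.

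**Figure D2:**
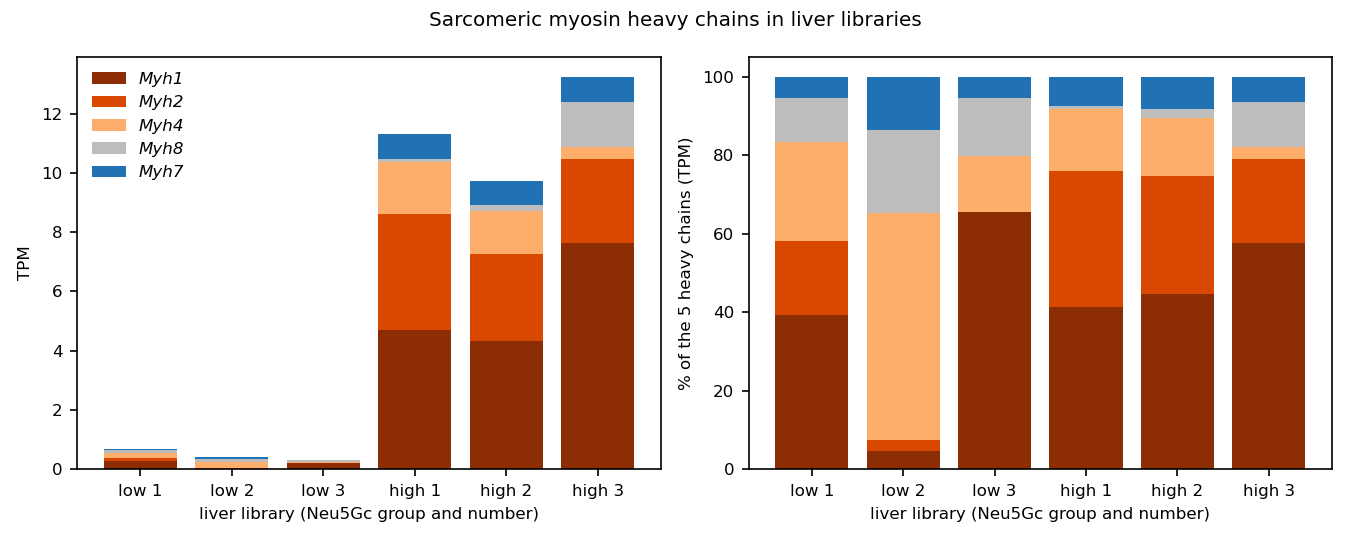
Myosin heavy-chain transcripts in each liver library, as TPM (left) and as a percentage of the 5 genes' TPM (right), stacked from Myh1 at the bottom to Myh7 at the top. Bars of the high libraries are tall and mostly Myh1 and Myh2, and high library 3 has the largest Myh8 share of the high libraries at 11.4%.

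The paired light chains, troponins and myosin-binding proteins C showed the fast form ahead in high liver libraries in all pairs but the last. Mylpf, the fast regulatory light chain, was at 1.43, 0.939 and 0.664 CPM in low and at 11.03, 9.10 and 11.2 in high. Myl1, the fast essential light chain, was at 0.529, 0.437 and 0.0431 in low and at 11.4, 10.1 and 9.16 in high. Their slow and ventricular counterparts were lower: Myl2 was at 0, 0.0359 and 0 in low and at 1.67, 0.911 and 1.23 in high, and Myl3 at 0.130, 0.139 and 0.114 in low and at 1.51, 1.17 and 3.17 in high. Groups did not overlap for any of these light chains, and no ratio is given for Myl2, which had 1.94 estimated counts in all 3 low libraries together.

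The troponin complex carries the calcium switch of the thin filament. Tnnc2, the fast calcium-binding subunit, was at 0.608, 0.192 and 0.181 CPM in low and at 11.8, 9.78 and 18.6 in high. Tnnc1, the slow and cardiac form, was at 0.888, 0.695 and 0.701 in low and at 0.878, 0.879 and 0.822 in high, and its groups overlapped. Tnni2, the fast inhibitory subunit, was at 1.13, 0.351 and 0.112 in low and at 13.0, 10.7 and 14.7 in high. Its slow form Tnni1 was at 0.0223, 0 and 0 in low and at 0.584, 0.457 and 0.435 in high. Both inhibitory forms were thus higher in every high library, with the fast form the more abundant. Tnnt3, the fast tropomyosin-binding subunit, was at 1.32, 0.514 and 0 in low and at 22.0, 19.3 and 27.1 in high, and its slow form Tnnt1 at 0.596, 1.03 and 0.777 in low and at 1.72, 1.56 and 1.46 in high. Tnnc1 is the 1 troponin whose level was about the same in both groups. Mybpc2, fast myosin-binding protein C, was at 0.323, 0.370 and 0.189 in low and at 2.47, 1.95 and 2.25 in high, while Mybpc1, the slow form, was at 0.426, 0.0484 and 0.0556 in low and at 5.11, 5.79 and 6.62 in high. The slow form was the more abundant of this pair in high libraries.

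Compared per length, on TPM, the fast forms of the 7 pairs together held 90.9, 91.2 and 91.5% of fast plus slow in high liver libraries 1, 2 and 3. They held 75.9, 58.6 and 45.3% in low libraries 1, 2 and 3, where slow transcripts summed to 3.82 to 4.57 TPM and fast ones to 3.16 to 12.6 TPM. Most of this slow sum was Tnnc1, at 1.85 to 2.26 TPM, and Tnnt1, at 1.27 to 2.29 TPM. In high libraries slow transcripts summed to 13.1 to 16.8 TPM and fast ones to 135 to 179.7 TPM. By pair, the fast share in high libraries ran from 92.2 to 96.0% for troponin C, from 98.0 to 98.7% for troponin I and from 90.7 to 93.6% for troponin T. It ran from 86.6 to 90.7% for the regulatory and from 76.6 to 90.7% for the essential light chains, and from 91.5 to 92.6% for the heavy chains. Myosin-binding protein C was the exception at 22.9 to 29.9%. The fast share of troponin I and of the regulatory light chains was not lower in low libraries, at 99.1 to 100% and 96.2 to 100%, while that of troponin C was 21.6 to 42.2%. For the heavy chains it was 82.8 to 93.8% in low libraries, which overlaps the high ones.

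**Figure D3:**
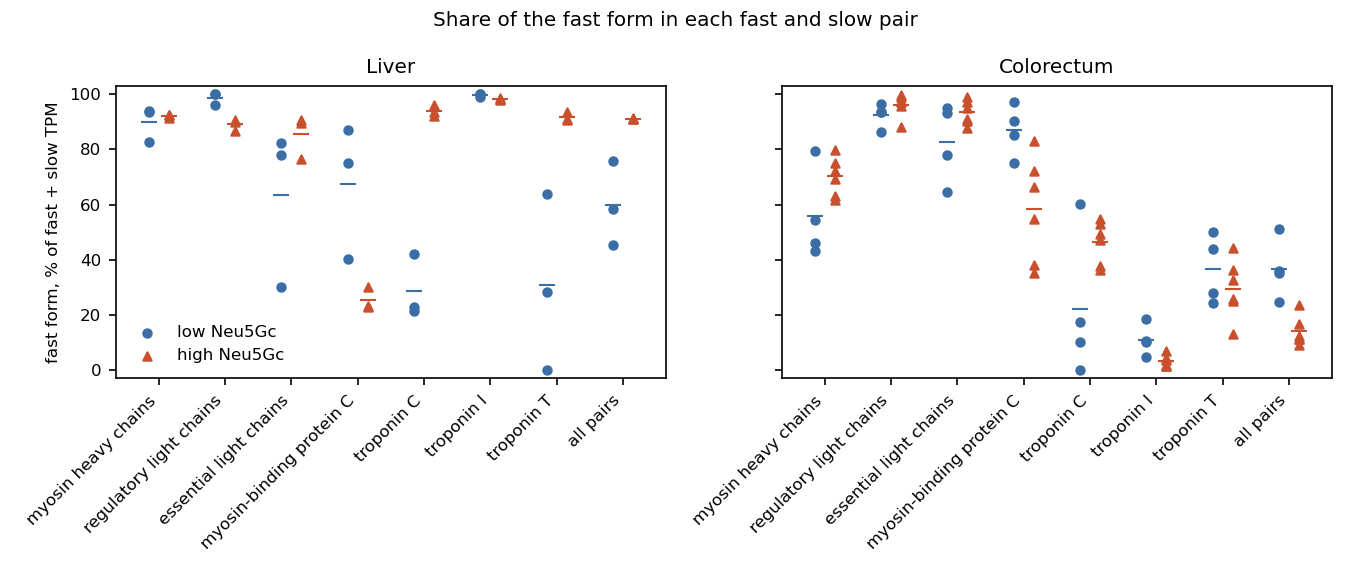
Share of the fast form in fast plus slow TPM for each of 7 pairs and for all pairs together, in liver (left) and colorectum (right). Each circle is a low and each triangle a high Neu5Gc library, and short lines are group means. In high liver libraries all pairs together lie at 90.9 to 91.5% and myosin-binding protein C at 22.9 to 29.9%, whereas in the colorectum all pairs together lie at 24.6 to 51.1% in low and 8.92 to 23.6% in high libraries.

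Of the 13 thin filament, Z disc and scaffold genes, 12 were called higher in high liver libraries, against 3.15% of all tested genes. Myot, Myoz1, Smpx and Cmya5, all scarce in low libraries, are among the 12, so this count carries the limit of the filter. Ttn, the giant spring titin, was at 1.497, 1.59 and 0.344 CPM in low and at 19.9, 13.1 and 18.2 in high. Tpm2, beta-tropomyosin, was at 4.36, 3.98 and 3.18 in low and at 12.7, 13.7 and 18.3 in high. Actn3, the fast-fibre alpha-actinin of the Z disc, was at 0.487, 0.167 and 0.128 in low and at 2.09, 1.53 and 1.37 in high. For each of these 3 genes all high libraries lay above all low ones, and Tpm2 had the smallest ratio of means at 3.88. Neb, the thin-filament ruler nebulin, was the exception at 37.4, 43.4 and 32.1 in low and at 40.5, 29.7 and 30.4 in high. It was by far the most abundant of the 43 genes in low libraries and did not share the difference. Among the others, Myot, a Z-disc protein, was at no more than 0.0539 CPM in any low library and at 2.63 to 3.95 in high ones, Tcap, the titin cap, had a ratio of 44.7, and the titin-associated Cmya5 one of 40.8. Myoz1, Ldb3 and Xirp2 had ratios of 30.6, 23.1 and 21.2, and Smpx and Klhl41 of 8.80 and 3.73.

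All 6 calcium-handling genes were higher in every high than in every low liver library, as were 8.61% of all tested genes. Sln is among the 6, and its separation followed from the filter on low counts. Atp2a1, the fast-fibre calcium pump of the sarcoplasmic reticulum, was at 0.847, 0.751 and 0.144 CPM in low and at 20.5, 19.4 and 24.2 in high. Pvalb, the calcium buffer parvalbumin of fast fibres, was at 0.485, 0.684 and 0.0819 in low and at 5.74, 3.81 and 2.94 in high. Ryr1, the calcium release channel, was at 0.182, 0.336 and 0.654 in low and at 3.31, 3.55 and 4.34 in high. The pump had the largest ratio of these 3, at 36.7, against 9.99 for Pvalb and 9.54 for Ryr1. Within the high group Pvalb was highest in library 1 and Ryr1 in library 3. Casq1, the calcium store protein calsequestrin, was at 0.590, 0.569 and 0.409 in low and at 2.10, 1.89 and 2.85 in high. Cacna1s, the voltage sensor that triggers release, was at 0.424, 0.392 and 0.139 in low and at 0.808, 1.10 and 1.60 in high. Sln, a small inhibitor of the pump, was at 0, 0 and 0.0211 in low and at 0.490, 0.575 and 1.31 in high, where a single estimated count stood behind all 3 low libraries and no ratio is given.

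The energy genes were split. Pygm, the glycogen phosphorylase of muscle, was at 1.03, 1.54 and 1.60 CPM in low and at 4.91, 4.22 and 6.26 in high liver libraries. Pgam2, the muscle phosphoglycerate mutase of glycolysis, was at 0.554, 0.498 and 0.381 in low and at 1.84, 2.20 and 2.96 in high. Both stood clear of the low libraries, by smaller ratios than Ckm and Mb, at 3.69 and 4.89. Eno3, the muscle enolase, was at 4.88, 4.00 and 6.05 in low and at 7.14, 7.30 and 7.38 in high, which did not overlap but was not called. Ampd1, the muscle AMP deaminase, was at 1.90, 4.26 and 2.95 in low and at 3.63, 2.25 and 1.48 in high, with the groups mixed. Trim63, a ubiquitin ligase known for breaking down muscle protein in wasting, was at 0.138, 0.263 and 0.230 in low and at 0.410, 0.356 and 0.309 in high and was not called. In all, the genes not called were Myh4, Myh8, Tnnc1, Neb, Eno3, Ampd1 and Trim63.

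Lists of other cell types were read in the same liver libraries. The 10 smooth muscle genes summed to 110.1 to 148 CPM in low and 99.8 to 138 in high, with Des higher and Acta2 lower by the test and the other 8 not called. The 11 heart genes summed to 2.48 to 4.54 CPM in low and 1.97 to 3.36 in high, with 6 tested and 0 called by edgeR, 0 at an unadjusted p under 0.05 and 0 by DESeq2, and Nppb at 0 in every liver library. Neither sum was higher in the high libraries as a group. The 6 genes of myogenic factors and satellite cells, the muscle stem cells, summed to 0.0371 to 0.0627 CPM in low and 0.217 to 0.263 in high. In low libraries Pax7, Myf5, Myod1, Myog and Myf6 were all at 0, and in high ones Myf6, the factor of mature fibres, was the most abundant at a mean of 0.115. The 6 adipocyte genes summed to 13.9 to 16.9 in low and 16.3 to 29.3 in high. The 8 stratified epithelium genes summed to 0.952 to 2.06 in low, 0.798 and 1.31 in high libraries 1 and 2 and 34.1 in high library 3, the library with the most Myh8. There Krt4, a keratin of moist stratified epithelia, reached 18.1 CPM. The 5 brown adipocyte genes summed to 692 to 968 CPM in low and 234 to 309 in high. Most of this was Elovl3, a fatty acid elongase that liver also makes, which fell from 759 ± 146 (SD, n = 3) to 168 ± 58.4 (log2 difference -2.09, edgeR adjusted p = 0.0179). Cox8b and Ppara of the same list were higher by the test, and Ucp1, which defines brown fat, reached 0.0210 CPM in low and 0.769 in high. The 8 colon epithelium genes summed to 250.2 to 287 in low and 170.4 to 212 in high, nearly all of it Krt8, a keratin of hepatocytes too, which was not called (edgeR adjusted p = 0.0825). The part of these transcripts, of the acinar transcripts and of depth in the skeletal muscle levels was not tested. The calls without the 2 acinar libraries (28) and at equal depth (36) are of genes chosen for this contrast and are description.

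**Figure D4:**
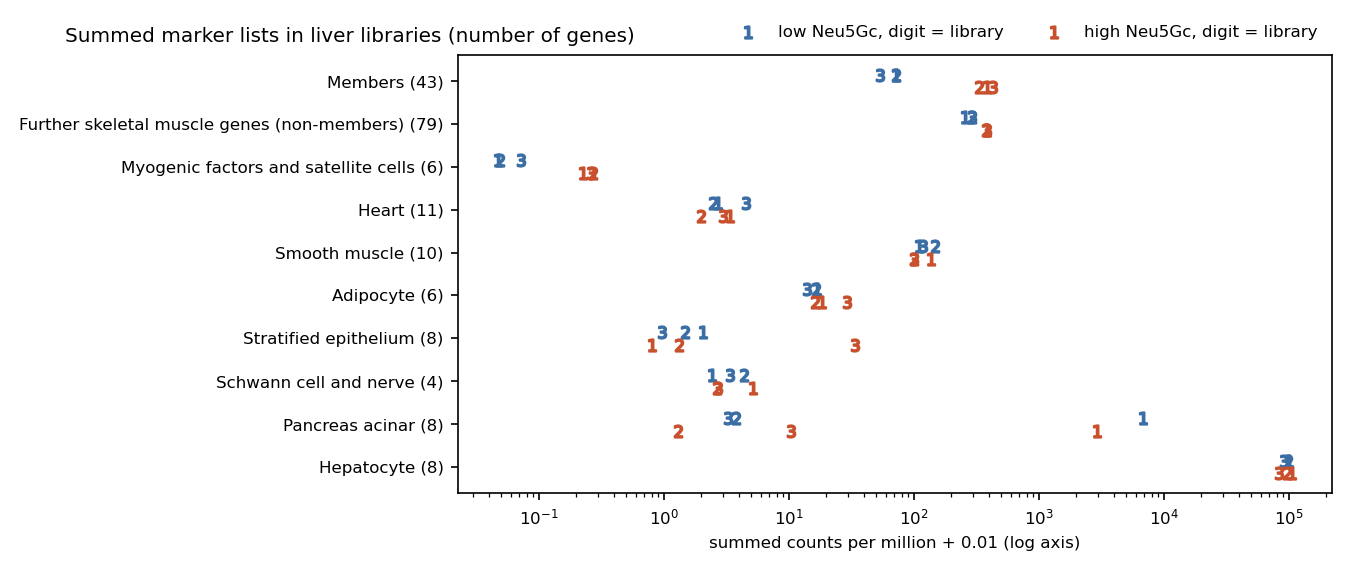
Summed CPM + 0.01 of marker lists in each liver library on a log axis, with the number of genes of each list in brackets. Digits are library numbers, placed higher for low and lower for high Neu5Gc. The skeletal muscle sums of the high libraries (335 to 433) lie apart from the low ones (53.8 to 71.9), heart and smooth muscle sums overlap, and acinar genes are high in library 1 of both groups.

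Further skeletal muscle genes outside the set of 43 were tested in the same fit. They come from the same libraries and are no independent support. Of 79 with a match in the tables, 65 passed the filter. Here too a gene scarce in low libraries could pass on its high libraries alone, and could then only come out higher. How many did so was not counted. By edgeR 42 were called higher and 0 lower in high liver libraries, against 3.15% and 3.32% of all tested genes. Their median log2 difference was 2.01. At an unadjusted p under 0.05, 1 was lower, and DESeq2 called 46 higher and 0 lower. Of the 42 calls, 35 were also made with the replicate block and 27 in each of the 6 fits that leave out 1 library. Among the 8 most abundant of the called genes were Tpm1, Pfkm, Hspb6, Des, Ankrd23, Ckmt2 and Tmem38a. Ckmt2, the mitochondrial creatine kinase of muscle, rose from 0.182 ± 0.262 CPM (SD, n = 3) to 8.51 ± 0.406 (log2 difference 5.55, SE 0.77, edgeR adjusted p = 0.0148), with an adjusted p of 0.104 under the replicate block. Tpm1, alpha-tropomyosin, which other cells also use, rose from 29.0 ± 1.93 to 48.6 ± 3.67 CPM (log2 difference 0.83, SE 0.10, edgeR adjusted p = 0.00226). Ckmt2 was thus scarce in low libraries, so its call carries the limit of the filter, whereas Tpm1 was abundant in every liver library. Ankrd23, a muscle ankyrin repeat protein, rose by 1.22 (SE 0.15, edgeR adjusted p = 0.00174). Des, the intermediate filament desmin, rose by 1.05 (edgeR adjusted p = 0.0252), and Tmem38a, a potassium channel of the sarcoplasmic reticulum, by 0.90 (edgeR adjusted p = 0.0173). Pfkm and Hspb6 rose by 0.45 and 0.60, with edgeR adjusted p-values of 0.0429 and 0.0449 that became 0.0984 and 0.0838 under the replicate block. Of the genes named here, Tpm1 and Ankrd23 were called in all 6 fits that leave out 1 library, Des in 4, Ckmt2 and Tmem38a in 3, and Pfkm and Hspb6 in 0, where their highest adjusted p-values were 0.148 and 0.143.

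Among the 10 other liver genes averaging at least 1 CPM whose log2(CPM + 0.5) followed the summed 43 genes most closely over the 6 libraries were, in order, Nrap, Fbxo21, Ak1, Fabp3, Ugt2b35, Eef1a2, Actn2 and Cox8b. Likeness was Pearson's correlation, and it is not printed because the 6 libraries fall into 2 separate clusters. Nrap, Fabp3, Eef1a2, Actn2 and Cox8b are on the list of further skeletal muscle genes. Fabp3, a fatty acid carrier of muscle and heart, was at 0.136 ± 0.0631 CPM in low and 5.90 ± 0.663 in high. Fbxo21, a ubiquitin ligase subunit, was at 69.0 ± 3.09 and 102 ± 3.53 CPM, and Ugt2b35, a glucuronosyltransferase, at 222 ± 4.66 and 312 ± 4.89. These 2 were abundant in every liver library and differed by much less than the muscle genes.

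In the colorectum the same genes did not move together. Of the 43 genes, 36 passed the filter on low counts, and Myh1, Myh8, Myl2, Myoz1, Xirp2, Sln and Ampd1 did not. By edgeR's quasi-likelihood test 4 of the 36 were called higher in high Neu5Gc and 2 lower, against 7.29% and 8.21% of the 17961 genes tested, so these shares give no result about the set. High libraries all lay above low ones for 5 of the 43 (7.5% of tested genes) and all below for 3 (5.17%). The median log2 difference was -0.10 over the tested members and -0.02 over all tested genes. The called genes were Eno3, Tnni1, Smpx and Myh2, all higher, and Acta1 and Ckm, both lower. The sum of the 43 ran from 424 to 712 CPM in low and from 708 to 891 in high libraries. Tpm2, which smooth muscle also uses, averaged 438 ± 123 CPM (SD, n = 4) in low and 447 ± 110 (n = 6) in high. Without Tpm2, Ldb3 and Ttn the sum ran from 85.7 to 133 in low and from 218 to 392 in high. The rise in this smaller sum lay in Eno3 and Tnni1, which averaged 23.9 and 12.1 CPM in low and 167 and 76.0 in high.

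**Figure D5:**
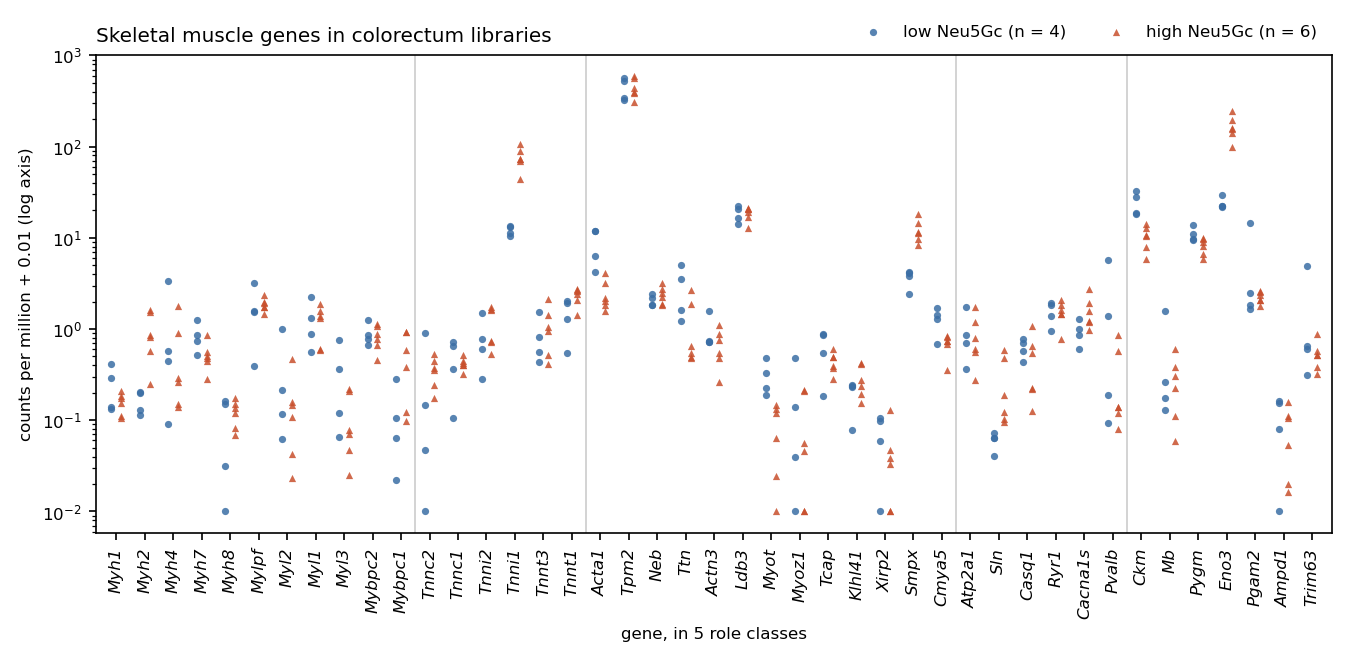
Level of each of the 43 genes in each colorectum library, as CPM + 0.01 on a log axis, with the same order and grey lines as in the plot of liver libraries. Circles are the 4 low and triangles the 6 high Neu5Gc libraries. All triangles lie above all circles for Tnni1, Eno3, Smpx, Myh2 and Sln and all below for Acta1, Ckm and Myot, and other genes overlap. The gap is narrow for Acta1, and Myh2, Sln and Myot lie at low levels.

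Eno3, the muscle enolase, was at 22.3, 29.1, 22.4 and 21.9 CPM in low colorectum libraries 1 to 4 and between 100.1 and 246 in the 6 high libraries, with a median of 158. Tnni1, the slow troponin I, was at 13.1, 13.4, 11.3 and 10.4 in low and between 43.7 and 106 in high, with a median of 73.6. For both genes the lowest high library was more than the highest low library by a wide gap, and in both it was high library 4. Ratios of the means were 6.97 for Eno3 and 6.30 for Tnni1. Smpx, a small protein of the muscle cytoskeleton, was at 4.08, 3.82, 4.16 and 2.41 in low and between 8.27 and 18.1 in high, with a median of 11.5. Myh2 was at 0.189, 0.103, 0.193 and 0.119 in low and between 0.240 and 1.59 in high, with a median of 0.831. Its groups did not overlap, but its level was below 2 CPM throughout. At 0.103 to 0.193 CPM in low libraries, Myh2 could pass the filter on its high libraries alone.

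The promoter regions of Tnni1 and Eno3 are shown because these were the most abundant of the 4 genes that were higher. Tnni1 lies at chr1:135799171-135799470 on the plus strand, the first of 2 starts in the RefSeq table, and Eno3 at chr11:70656926-70657225 on the plus strand (GRCm38.p6). Capitals mark E-boxes.
Tnni1: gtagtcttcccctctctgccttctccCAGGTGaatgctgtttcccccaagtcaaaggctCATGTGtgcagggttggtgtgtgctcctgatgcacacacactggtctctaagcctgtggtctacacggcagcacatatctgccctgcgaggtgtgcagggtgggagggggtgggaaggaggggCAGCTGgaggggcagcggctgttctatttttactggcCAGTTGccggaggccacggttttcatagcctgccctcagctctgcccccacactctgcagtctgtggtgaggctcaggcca
Eno3: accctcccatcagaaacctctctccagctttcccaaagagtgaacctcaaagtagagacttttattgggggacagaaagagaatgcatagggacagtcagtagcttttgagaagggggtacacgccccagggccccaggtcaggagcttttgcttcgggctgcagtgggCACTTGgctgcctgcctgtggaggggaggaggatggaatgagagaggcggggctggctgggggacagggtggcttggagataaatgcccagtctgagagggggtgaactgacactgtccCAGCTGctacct
The Tnni1 window holds 4 E-boxes and the Eno3 window 2, and in each 1 of them reads CAGCTG. The Eno3 window also holds 1 MCAT motif, as does that of Acta1. Neither window holds a MEF2 motif or a CArG box.

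Acta1 and Ckm were lower in high colorectum libraries, opposite to the liver. Acta1 was at 11.8, 11.9, 4.17 and 6.35 CPM in low libraries 1 to 4 and between 1.55 and 4.06 in high, with a median of 2.12. Ckm was at 32.4, 28.3, 18.0 and 18.8 in low and between 5.89 and 14.3 in high, with a median of 10.5. The groups did not overlap for either gene, and Acta1 came close, with high library 3 at 4.06 beside low library 3 at 4.17. Ratios of the means, high over low, were 0.290 for Acta1 and 0.422 for Ckm. Myot was also higher in every low library, at 0.180 to 0.469 CPM against 0 to 0.135, and was not called. Smooth muscle actins with near-identical coding sequence were abundant in the same libraries, Acta2 at a mean of 858 CPM in low and 815 in high and Actg2 at 749.9 and 667, and reads of these could be counted for Acta1. The 10 smooth muscle genes summed to 3967 to 6962 CPM in low and 3234 to 6280.0 in high, and their part in the lower Acta1 was not tested.

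Mb, Atp2a1 and Tnnt3, which had large liver ratios, were low in the colorectum. Their groups overlapped, unlike those of Acta1, Ckm, Tnni1 and Myh2, of which Myh2 was low too. Mb was at 1.57, 0.165, 0.120 and 0.249 CPM in low and between 0.0490 and 0.599 in high. Atp2a1 was at 1.75, 0.846, 0.356 and 0.700 in low and between 0.267 and 1.74 in high. Tnnt3 was at 1.53, 0.811, 0.555 and 0.429 in low and between 0.406 and 2.15 in high. In all 3 the highest low library was library 1, which was also the highest low library for Mylpf, Myl1, Myh4, Tnnc2, Tnni2 and Actn3. Tpm2 was at 521, 566, 323 and 342 CPM in low and between 307 and 588 in high, and Ldb3, which binds alpha-actinin at the Z disc, averaged 18.3 ± 3.72 (SD, n = 4) and 18.5 ± 3.22 (n = 6). Pygm averaged 10.97 ± 1.96 and 8.20 ± 1.68. The groups overlapped for all 3. Pvalb, Pgam2 and Trim63 were each highest in low library 4, at 5.72, 14.7 and 4.84 CPM, the library with kidney tubule transcripts, and their part in these values was not tested. Without low libraries 3 and 4, 4 members were called higher and 2 lower, the same numbers as with them.

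Transcripts of other cell types also differed between the colorectum groups. The 8 colon epithelium genes summed to 17681 to 28302 CPM in low and 13392 to 18665 in high. Of these Muc2, the goblet cell mucin, and Car1, a carbonic anhydrase, were lower by the test and Lgals4, an epithelial lectin, was higher. The 7 prostate and seminal vesicle genes summed to 14.8 to 167 CPM in low and 143 to 359 in high. Much of this was Spink1, a trypsin inhibitor that the pancreas and gut also make, which was not called (edgeR adjusted p = 0.0723). Pbsn, the prostate gene probasin, was at 0 in all 4 low libraries and reached 86.6 CPM in 1 high library, a clear part of the sum there. The 8 hepatocyte genes summed to 1646 CPM in low library 4 and to 76.1 to 196 in the other 9 libraries, and the 5 brown adipocyte genes to 10.9 to 41.4 in low and 4.99 to 11.9 in high. The sums of all 4 lists overlapped between the groups, and their part in the members' values was not tested.

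Summed over all pairs, the fast share was lower in high than in low colorectum libraries, opposite to the liver, but the single pairs did not share this direction. On TPM it was 51.1, 35.9, 24.6 and 35.3% in low colorectum libraries 1 to 4 and between 8.92 and 23.6% in the 6 high libraries. Troponin I set this, since slow Tnni1 alone gave 16.1 to 21.3 TPM in low and 67.3 to 156 TPM in high libraries, out of 20.6 to 31.3 and 76.6 to 160.2 TPM for all slow forms. In each pair taken alone the fast shares overlapped between groups, from 43.2 to 79.5% in low and 61.6 to 79.8% in high libraries for the heavy chains and from 24.4 to 49.96% and 13.0 to 44.4% for troponin T. Of the heart list, Tnnt2, cardiac troponin T, rose with Tnni1, from 2.21 to 11.7 CPM (log2 difference 2.41, edgeR adjusted p = 0.000125), and Pln, the calcium pump inhibitor phospholamban, fell from 20.4 to 6.30 CPM (-1.70, edgeR adjusted p = 0.00027). The defining heart genes Nppa and Nppb were at no more than 0.282 CPM in any colorectum library.

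Of the further skeletal muscle genes, 53 passed the filter in the colorectum, 4 were called higher and 6 lower, with a median log2 difference of -0.27. Over all tested genes 7.29% were higher and 8.21% lower, so these counts give no result about the list, and the genes are described singly. Nrap, an actin-anchoring protein, rose from 8.91 ± 1.67 (SD, n = 4) to 24.2 ± 2.61 CPM (n = 6; log2 difference 1.43, SE 0.18, edgeR adjusted p = 0.000625). Apobec2, a muscle member of a deaminase family, rose from 1.43 ± 0.582 to 6.34 ± 1.86 CPM (2.13, SE 0.33, edgeR adjusted p = 0.00206). Both were higher in every high than in every low library. Ckmt2 and Stac3, an adaptor of the calcium release machinery, rose by 1.09 and 0.84, with edgeR adjusted p-values of 0.0387 and 0.0488. Prkaa2, a catalytic subunit of the AMP-activated kinase, fell from 163 ± 14.2 to 98.1 ± 17.5 CPM (-0.74, SE 0.12, edgeR adjusted p = 0.00302). Hrc, a calcium-binding protein of the sarcoplasmic reticulum, fell from 3.93 ± 1.05 to 1.66 ± 0.447 CPM (-1.21, SE 0.25, edgeR adjusted p = 0.0097). Both were lower in every high than in every low library. Chrna1, the acetylcholine receptor subunit, fell by 1.17 (edgeR adjusted p = 0.0234). Smtnl2 and Sypl2 were lower by -1.63 and -4.53 (edgeR adjusted p = 0.0402 and 0.0212), and Sypl2 reached 25.8 CPM in low library 4 against at most 1.84 in the other 3. Of these 10 calls, 5 were made in each of the 10 fits that leave out 1 library, among them Nrap, Apobec2, Prkaa2 and Hrc. Sypl2 and Chrna1 were called in 8 of these fits, Ckmt2 and Smtnl2 in 2 and Stac3 in 1.

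Among the 10 other colorectum genes whose levels followed the summed 43 most closely over the 10 libraries were Leprotl1, Snrpe, Lsm5, Parp4, Smad1, Ripk3, Tmc4, Pfdn4 and Mapk13. None of them is on the list of further skeletal muscle genes. Tpm2 is the largest single part of the sum they follow, but it averaged 438 CPM in low and 447 in high. Eno3 averaged 23.9 and 167 CPM and Tnni1 12.1 and 76.0, so more than Tpm2 enters the pattern.

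At low Neu5Gc the 2 tissues held different members of the set. TPM was used because the count tables carry gene lengths set per tissue. On log2(TPM + 1), 31 of the 43 were tested with limma, 13 were called higher in the colorectum and 3 higher in the liver, against 73.8% and 10.8% of the 15637 genes tested. The median of all tested genes was itself 1.02 higher in the colorectum, and that of the members 0.59. Since low liver levels entered the choice of members, these are descriptions. Tpm2 averaged 552 ± 155 TPM in the colorectum (SD, n = 4) and 3.77 ± 0.540 in the liver (n = 3), Tnni1 19.2 ± 2.41 and 0.00853 ± 0.0148, and Ckm 26.0 ± 7.53 and 0.836 ± 0.785. Neb averaged 1.10 ± 0.182 in the colorectum and 11.3 ± 1.78 in the liver, and Ampd1 0.0936 ± 0.0736 and 5.24 ± 2.13. Neb, Ampd1 and Tnnc1, the 3 genes called higher in liver on TPM, were also the 3 whose liver groups overlapped. Both rest on the same low liver values, so nothing is read from this match. With edgeR on counts 7 members were called higher in liver, among them Myh1 and Klhl41, whose liver groups did not overlap. Of the TPM calls, 9 of the 13 and all 3 were made the same way on counts. Mylpf, higher in the colorectum on TPM, was lower there on counts by 0.56 to 0.60 without being called (adjusted p 0.230 to 0.315 by edgeR and DESeq2).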

How the data were processed

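Bulk RNA-seq of 16 libraries was used. Per the labels' protocols, RNA came from a Trizol extraction and libraries from a NEBNext Ultra kit. For each tissue the authors deposited estimated counts and TPM per gene. The build is GRCm39 per the submitters' processing notes, with no aligner, quantifier or annotation version given in the sources used here. Within a tissue the estimated counts equalled TPM times 1 factor per gene and 1 per library, to within 1.3e-08 on the log2 scale over 13169 liver and 1.2e-14 over 15035 colorectum genes with more than 20 counts in each library. The gene factors differ between tissues, so the comparison of tissues, planned on counts, used TPM. Symbols come from GENCODE M21 annotation, which named 35825 IDs.

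Estimated counts were rounded and fitted per tissue with edgeR 4.0.16 in R 4.3.3 (TMM, filterByExpr, robust quasi-likelihood test, two-sided, Benjamini-Hochberg at 0.05), and adjusted over all tested genes. Tissues were compared with limma 3.58.1 on log2(TPM + 1) over all 4 groups. CPM use library totals. The scripts recovered changes set in simulated counts. Alternatives were DESeq2 1.42.0, other scales and filters, 1 fit of all libraries, thinning, a replicate block, and leaving out libraries. Same-numbered liver libraries deviated together over 12383 genes (Pearson correlations across genes of 0.63, 0.36 and 0.24), and the pairing is a hint from the data. Genes and lists were chosen with earlier results of these data known. Non-members named are the called genes of the further list (the 8 most abundant per tissue, and the other 2 in the colorectum), called genes of other lists and the 10 nearest in pattern. Some genes that this rule names are not reported here. Counts carry counting error beside the spread between libraries.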

Additional observations from a re-analysis of the deposited data

Results flagged for a closer look

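Some colorectum libraries lay far from the others of their group by a gap test at the 95% level, which flags about 1 group in 20 by chance. 104 values were checked and 13 far libraries found, all of them in the colorectum. The list is no statement about the liver, where Myh8 in high library 3 stood apart at 7.45 CPM. In low library 1 these were the highest values of Mb (1.57 CPM), Myh4 (3.36), Myl2 (0.994), Tnnc2 (0.891) and Actn3 (1.58). In low library 2 Eno3 was highest at 29.1 CPM and Klhl41 lowest at 0.0675. In low library 4 Pgam2 reached 14.7 CPM and Trim63 4.84. In high library 4 Myl2 reached 0.459 CPM and Xirp2 0.119, and the fast share of the regulatory light chains was lowest at 88.2%. In high library 6 Cmya5 was lowest at 0.344 CPM.

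In 3 genes every liver library moved one way and every colorectum library the other. The ratio of mean CPM, high over low, was 52.9 in liver and 0.290 in colorectum for Acta1, 31.7 and 0.422 for Ckm, and 131 and 0.247 for Myot, which had 3.95 estimated counts in the low liver libraries together. The difference between the tissues was not tested.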

How the results depend on the processing

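In liver 0 members were called lower under any alternative, and 23 to 39 were called higher; leaving out 1 library gave 25 to 31. The count was 23 with limma on log2(TPM + 0.1), where the TPM filter left some members untested. There 15 further muscle genes were higher and 1 lower, and all genes gave 165 higher and 1605 lower. On log2(TPM + 1) these were 15 and 1, and 165 and 1610. With no TPM filter all genes gave 154 higher, and 33 members were higher. All liver genes gave 835 and 887 with the DESeq2 Wald test, 227 and 219 with all libraries in 1 fit, 306 and 324 with the replicate block, and 185 and 180 without low 1 and high 1 (chosen after seeing the data). Leaving out 1 library gave 190 to 456 higher and 186 to 481 lower in all and 29 to 36 further muscle genes.

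In the colorectum 3 to 6 members were called higher and 0 to 4 lower; 4 were lower with the Wald test and with all libraries in 1 fit, where 10 further genes were lower. Same-numbered colorectum libraries did not deviate together (correlations -0.15, -0.07, -0.05 and -0.06). There the replicate block gave 212 and 270 for all genes, 0 members lower and 2 further genes higher and 1 lower, against 488 and 557 for all genes and 2 further genes higher in the same 8 libraries without the block. All genes gave 731 and 969 on log2(TPM + 0.1), 725 higher on log2(TPM + 1), and 552 and 879 with no TPM filter. Further genes were 2 lower on both TPM scales and 2 higher with no TPM filter and without low 3 and 4; without high 4 and 5 too, 766 genes were higher. Leaving out 1 library gave 766 to 1765 higher and 826 to 1889 lower, 4 members higher and 2 to 4 lower, and 2 to 4 and 4 to 8 further genes.

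Between tissues, counts in place of TPM gave 6746 and 5810 genes (edgeR), 6864 and 5657 (DESeq2 size factors), 6851 and 5587 (no filter) and 6994 and 5656 (Wald test), with 7, 7, 7 and 8 members higher in liver; 20 were higher in the colorectum on TPM with no filter. Mylpf turned to -0.60, -0.56, -0.56 and -0.56, not called in any of these. Leaving out 1 library gave 11037 to 11677 and 1559 to 1785 genes and 11 to 15 and 2 to 4 members.

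The mean fast share in high liver was 88.7% on CPM and 92.1% without pairs whose slow form is the heart form; those gave 16.3 and 5.42% in low and high colorectum. Leaving out 1 library gave 51.9 to 67.2% and 91.0 to 91.3% in liver and 31.9 to 40.7% and 12.1 to 15.1% in colorectum. The summed level averaged 46.3 TPM in low liver and 910.4 TPM in high colorectum. Without Tpm2, Ldb3 and Ttn it averaged 113 and 301 CPM in low and high colorectum, a rise that lay in Eno3 and Tnni1. Leaving out 1 library gave 62.7 to 71.8 and 360.3 to 409 CPM in liver and 525.6 to 622 and 742 to 779 in colorectum. Causes were not tested. Low liver values of many members rest on a few counts, which limits every ratio.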
